A study of Mus musculus with 32 samples.

Results

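The subject is the resting side of a brain injury study: microglia sorted from the uninjured cortex of mice whose other hemisphere had received a stab wound. All 16 samples labelled as non-injured hemisphere were taken, of 32 in the series, and the 2 columns of each day and sex were summed, which gave 8 libraries of 16. The mice were adult C57BL/6 animals, heterozygous for Cx3cr1CreER, a tamoxifen-inducible recombinase driven by the fractalkine receptor gene. At 8 to 10 weeks of age they were given tamoxifen at 180 mg/kg on 5 days in a row, which switched on the yellow fluorescent protein EYFP in microglia, and they were then wounded. The groups were females and males at 1, 4, 7 and 14 days after the wound, so that each day had 1 female and 1 male library. Every group carried the same allele, agent and contralateral wound, and unwounded mice were not analysed here. EYFP-positive cells were sorted from freshly dissociated cortex, at the site matching the wound, and other macrophages of the brain border also use the Cx3cr1 gene. Nothing in the labels ties samples to separate animals, so the p-values below reflect the spread among these libraries, which may be technical.

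Microglia are the resident macrophages of the brain. In the healthy cortex they survey the tissue with moving processes, sense nucleotides through purine receptors such as P2ry12, depend on the growth factor receptor Csf1r and release complement, cystatin and lysosomal proteins. Sorting them needs dissociation of the tissue, during which the cells can switch on early response genes and can carry RNA of neighbouring cells.

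Within a group, the pair of columns was almost as close as repeated counting of 1 library would be, and it was counted as 1 sample. A chi-square comparison gave medians of 0.499 to 0.639, where counting error alone gives 0.455, and of 33.9 to 113 between the female and the male of a day. The 8 libraries held 21874442 to 45229115 counts. Between 14779 and 41086 genes had a count, and between 11094 and 20871 reached 1 TPM (transcripts scaled for length and library total). Of the 28302 genes that reached 1 TPM in any library, 9086 did so in all 8. Xist and 4 Y-linked genes matched the sex label in all 8.

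Several libraries stood apart from the rest. In the day 4 male library 25.7% of counts came from the mitochondrial genome, against 1.16% to 7.55% in the other 7. The day 14 male library gave 5.18% of its counts to small structural RNAs, against 0.01% to 0.68%. In the day 14 female library 14779 genes were detected, the fewest, and the 10 leading genes took 25.5% of counts. The same library showed a strong trend with base composition. Among 9179 protein-coding genes averaging 10 CPM or more (counts scaled to library size with TMM factors), the fifth of genes with the most GC-rich transcripts had a median log2 deviation of -1.33 from the 8-library median, and the fifth with the fewest G and C bases one of 0.92. The difference of -2.25 compared with -0.35 to 0.44 in the other 7 libraries. With all 16 libraries set side by side, the day 14 female libraries had differences of -1.70 on the injured side and -1.98 on the non-injured side, and the other 14 lay between -0.61 and 0.66.

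**Figure D1:**
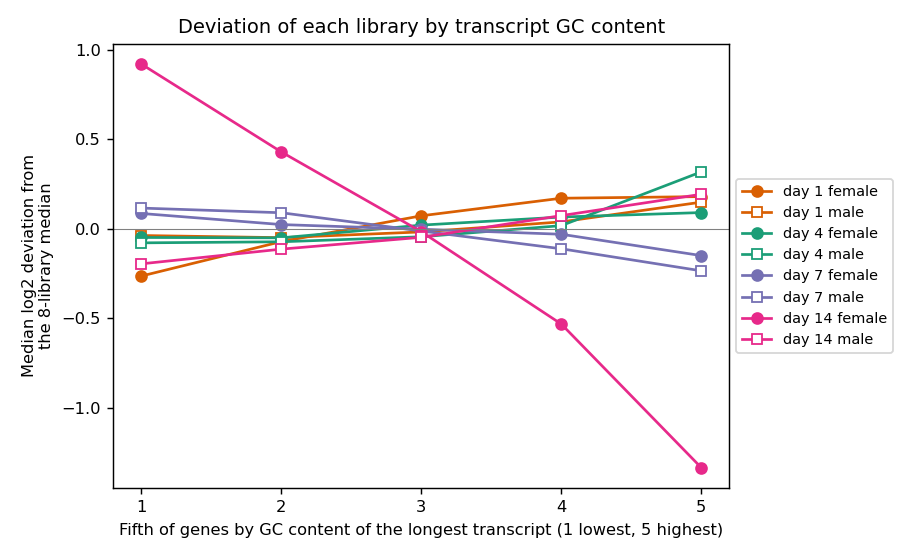
Median log2 deviation from the 8-library median (vertical axis) for 5 equal groups of 9179 protein-coding genes ordered by the GC content of their longest transcript (horizontal axis), 1 line per library. The day 14 female line runs down from 0.92 to -1.33, and the other 7 lines stay between -0.26 and 0.32.

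The transcriptome was led by secreted and lysosomal proteins of microglia. Cst3, which encodes the cysteine protease inhibitor cystatin C, was the most abundant gene on average, at 37884 ± 24696 TPM (SD, n = 8). Its lowest value was 12051 TPM in the day 4 male, its median 31210 TPM and its highest 91885 TPM in the day 14 female. Cst3 lies on chromosome 2 from 148871722 to 148875692 in GRCm38. Ctss, the cathepsin S protease gene, averaged 9340 ± 4679 TPM, between 1245 TPM in the day 4 male and 15905 TPM in the day 7 male. The other 6 libraries held between 3591 and 11260 TPM of Ctss, so in TPM the day 4 male was the low one for both genes. Cst3 made up 97.2% of the mean TPM sum of the list of cystatins and protease inhibitors. On CPM that list was lowest in the day 14 male, at 8607, against 11842 in the day 4 male.

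The 30 leading genes also held mitochondrial genes, Rn7s1, Rn7s2 and predicted gene models, described with the RNA classes. The 3 chains of complement C1q, the molecule that starts the classical complement cascade, were among the 30 leading genes: C1qb averaged 8322 TPM, C1qa 6567 TPM and C1qc 5860 TPM. Lgmn, the legumain protease gene, averaged 7159 TPM and Ctsd, the cathepsin D gene, 6626 TPM. Apoe, the lipid carrier gene, averaged 7730 TPM and ranged from 1393 TPM in the day 1 male to 23368 TPM in the day 7 male. Ftl1 and Fth1, the ferritin light and heavy chain genes of iron storage, averaged 7625 and 6517 TPM. B2m, the constant chain gene of MHC class I, averaged 5716 TPM. P2ry12, the ADP receptor gene, closed the leading 30 at 5450 ± 2730 TPM. Under CPM, which is not scaled to gene length, 22 of these 30 genes stayed among the leading 30.

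Actin levels varied widely. Actb, the beta-actin gene, lay at 102120 TPM in the day 14 female, between 6752 and 19225 TPM in 6 libraries and at 894 TPM in the day 4 male. It held 10.4% of all counts of the day 14 female library. Tmsb4x, which encodes the actin-binding peptide thymosin beta 4, stayed between 3852 and 8548 TPM in all 8. Both genes serve the actin skeleton, and their spread over the libraries differed widely.

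**Figure D2:**
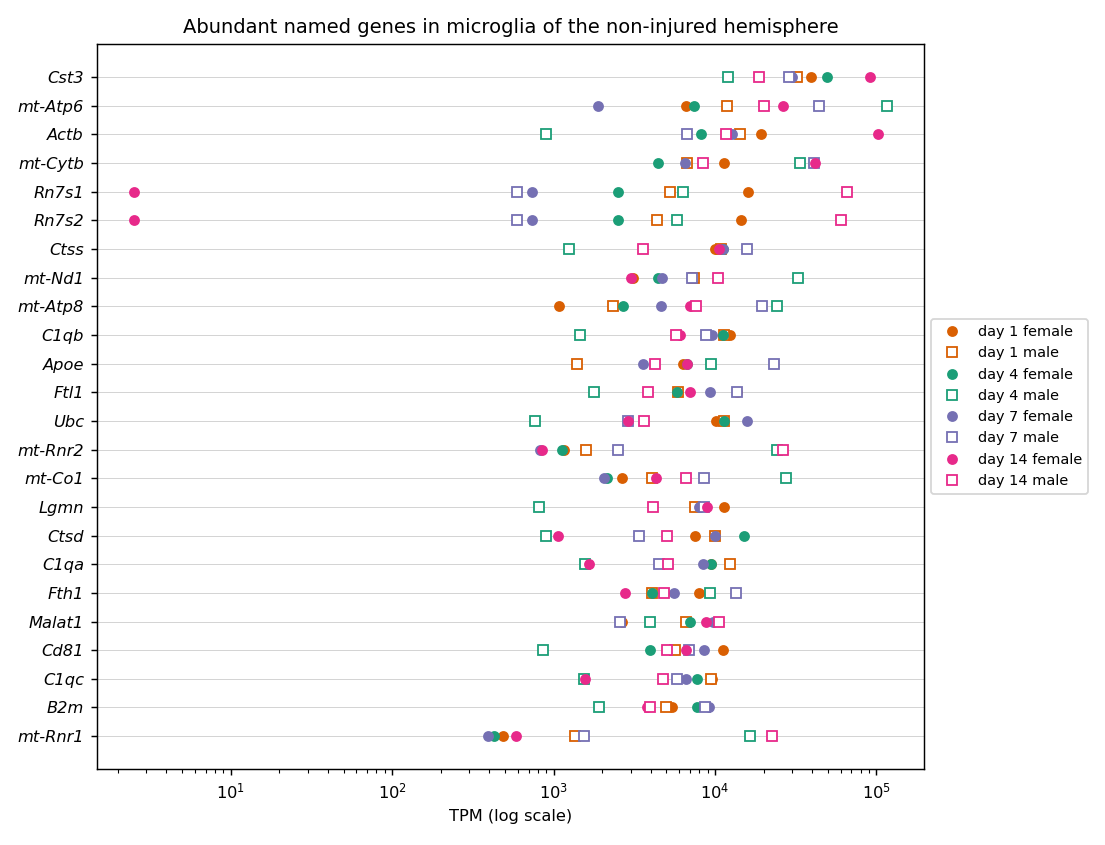
TPM (log axis) of 24 of the most abundant genes, predicted gene models left out, ordered by their mean over 8 non-injured libraries, with females filled and males open. The day 4 male square is the lowest for Cst3, Actb and Ctss and the highest for mt-Atp6, at 115721 TPM.

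Promoter sequence is shown for 4 genes because they mark different patterns: Cst3 and Ctss lead the steady state, P2ry12 marks homeostatic microglia and Saa3, described further on, was abundant in a single library. The 250 bases before each start site are from RefSeq on GRCm38.p6, written 5′ to 3′ along the gene. Capitals mark GAGGAA, a core that the myeloid factor PU.1 can bind, GGAAGT, a core of the ETS factor family, and TATAAA, the TATA box, each searched on both strands. These motifs do not overlap one another in the letters marked here.

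Cst3, chr2:148875513-148875762, minus strand: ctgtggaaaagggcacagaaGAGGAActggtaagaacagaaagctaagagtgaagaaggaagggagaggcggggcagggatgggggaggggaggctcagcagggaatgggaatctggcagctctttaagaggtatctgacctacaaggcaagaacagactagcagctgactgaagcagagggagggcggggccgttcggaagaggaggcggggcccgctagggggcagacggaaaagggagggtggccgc
Ctss, chr3:95526536-95526785, plus strand: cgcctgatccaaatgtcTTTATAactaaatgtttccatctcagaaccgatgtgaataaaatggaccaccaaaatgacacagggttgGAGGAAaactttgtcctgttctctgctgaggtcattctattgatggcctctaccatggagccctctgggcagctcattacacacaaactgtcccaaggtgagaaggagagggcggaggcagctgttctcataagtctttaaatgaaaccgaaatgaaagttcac
P2ry12, chr3:59262986-59263235, minus strand: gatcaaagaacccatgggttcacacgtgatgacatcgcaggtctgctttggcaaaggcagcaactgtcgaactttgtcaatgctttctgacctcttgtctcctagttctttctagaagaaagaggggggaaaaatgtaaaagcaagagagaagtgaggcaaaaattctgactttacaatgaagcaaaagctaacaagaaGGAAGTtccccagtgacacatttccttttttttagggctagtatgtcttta
Saa3, chr7:46715677-46715926, minus strand: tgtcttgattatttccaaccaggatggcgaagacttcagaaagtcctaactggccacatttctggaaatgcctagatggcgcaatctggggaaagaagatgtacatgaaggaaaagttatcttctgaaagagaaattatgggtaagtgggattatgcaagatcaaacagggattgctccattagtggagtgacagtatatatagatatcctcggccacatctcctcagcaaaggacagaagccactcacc

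The Cst3 promoter held 1 GAGGAA, 230 bases before the start, and the Ctss promoter 1, 164 bases before it, besides TATAAA on the reverse strand at 233 bases. The P2ry12 promoter held 1 GGAAGT, 51 bases before the start. Of 32851 promoters of this length, 23.3% held GAGGAA, 19.7% GGAAGT and 12.4% TATAAA, so these matches are common and only describe the letters.

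By RNA class, nuclear protein-coding genes took a median of 93.4% of counts, between 66.3% in the day 4 male and 96.7% in the day 4 female. Long non-coding RNA took 0.90% to 2.51%. Malat1, a nuclear non-coding RNA, ranged from 2589 TPM in the day 7 male to 10602 TPM in the day 14 male, a narrower spread than that of Actb. Mitochondrial counts were 1.37% and 1.93% in the day 1 female and male, 1.16% and 25.7% at day 4, 1.20% and 6.70% at day 7, and 5.43% and 7.55% at day 14. The male was above the female on each day in this share.

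Within the mitochondrial class, messenger genes and ribosomal genes did not move alike. The 13 messenger genes held 20.9% of counts in the day 4 male, 5.29% in the day 14 female and 3.66% in the day 14 male, so that at day 14 the female was above the male. The 2 ribosomal genes held 4.81% in the day 4 male and 3.89% in the day 14 male. On TMM-scaled CPM the whole class was also higher in the day 14 female, at 84058, than in the day 14 male, at 56694. In the other 6 libraries the ribosomal genes held 0.08% to 0.31%. mt-Atp6, a subunit gene of ATP synthase, lay at 115721 TPM in the day 4 male, and its median over the 8 was 16042 TPM. The 22 mitochondrial tRNA genes were listed at 0 in all 8 libraries. A set of 6 pseudogene models on chromosome 1, which share 97.2% or more of their 31-base words with mitochondrial transcripts, held 5.75% of the day 4 male counts and 0.12% to 0.93% elsewhere. Reads of these copies and of the mitochondrial genes cannot be told apart, so the shares of both classes are uncertain.

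Structural and repeat-like RNA varied widely. Rn7s1 and Rn7s2, genes of the signal recognition particle RNA, together made up 12.7% of TPM in the day 14 male and 0.0005% in the day 14 female, with a median of 0.734%. The ribosomal RNA model CT010467.1, named after its value was seen, was the leading gene by counts in the day 14 male, with 3.83% of them, and held 0.0067% to 0.55% in the others. A family of 9 gene models on chromosomes 2 and 9 that includes Gm10800 and shares 36.2% to 94.4% of its 31-base words, likewise named after its values were seen, made up 8.26% of TPM in the day 4 female, 7.03% in the day 14 male and 0.0004% in the day 7 male. Because TPM is a share, such RNAs lower every other gene in the library that carries them. List sums below were therefore also taken as CPM and as TPM rescaled to nuclear protein-coding genes. Gm10800 and other models of its family are annotated as protein-coding. The rescaled TPM and the protein-coding shares therefore still include them, and the rescaling does not correct for this family.

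**Figure D3:**
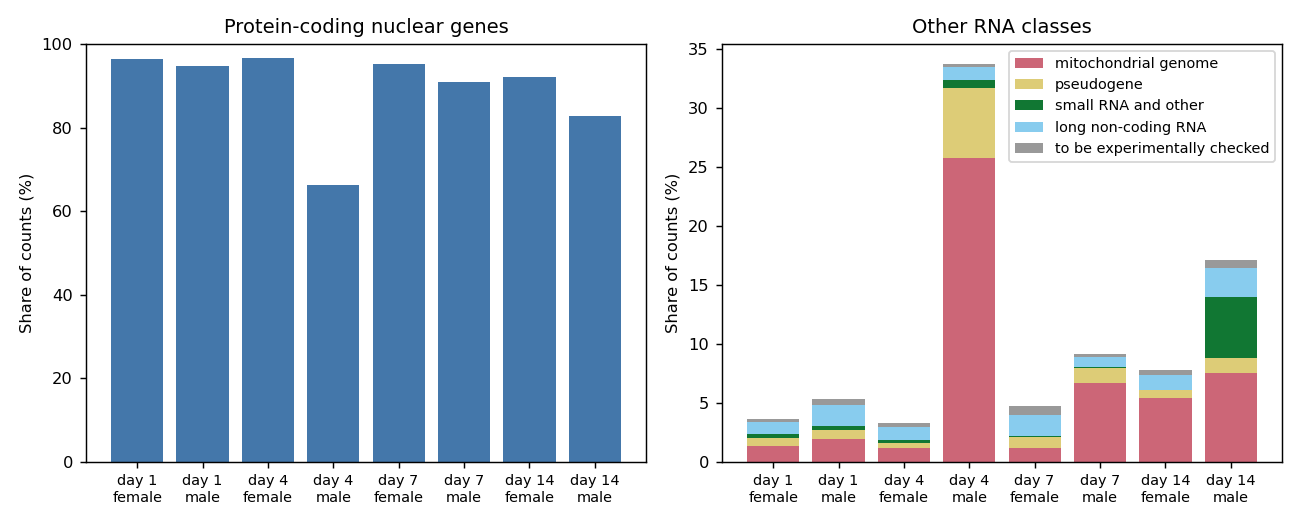
Share of counts (%) by library in nuclear protein-coding genes (left, axis from 0 to 100) and, stacked, in the other RNA classes (right). The day 4 male bar reaches 25.7% for the mitochondrial genome and 6.00% for pseudogenes, and the day 14 male bar 5.18% for small RNA and others.

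The question the design poses for these libraries is whether the uninjured side changes over the 4 days. A quasi-likelihood test in edgeR called 0 of 24622 genes for day with sex as a covariate (0% called; 341 genes had an unadjusted p under 0.05). Against day 1, edgeR called 0 genes at day 4, 0 at day 7 and 0 at day 14, with 186, 142 and 521 genes at an unadjusted p under 0.05. DESeq2 called 8 genes for day, and 20, 5 and 67 against day 1. With 1 female and 1 male per day, the test had 3 residual degrees of freedom, and a p that misses the threshold does not show that the days were alike. The count for day was 820 without the day 14 male library, and that for day 14 over day 1 was 1293, of which 1141 were lower at day 14. Leaving out any 1 of the 7 other libraries gave 4 to 72 calls for day, the most without the day 14 female, and in each such fit a lone sample is assumed to vary like the other groups. Over all genes tested the median log2 change against day 1 was 0.01 at day 4, 0.04 at day 7 and -0.25 at day 14, and median-ratio scaling moved it by 0.12 at day 7 and 0.21 at day 14.

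Similarity between libraries did not follow the day. Across 9445 genes averaging 10 CPM or more, the 4 pairs of the same day correlated at a median r of 0.564 on log2(CPM + 1), from 0.385 to 0.875. The 12 pairs of the same sex on different days had a median of 0.683, and the 12 pairs that differed in both 0.712. Genes are not independent replicates, and all pairs share libraries, so these values are descriptions. The closest pair was the day 7 and day 4 females at 0.956, and the farthest was the day 14 female and the day 4 male at 0.250.

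Genes of homeostatic surface receptors summed to a median of 40740 TPM, and 30 of the 31 measured reached 1 TPM in all 8 libraries. The sums were 48487 and 48603 TPM in the day 1 female and male, 58148 and 5336 TPM at day 4, 51939 and 27521 TPM at day 7, and 32992 and 24825 TPM at day 14. On all 3 scales the day 4 male was lowest. In edgeR 0 of 31 members were called for day, and their median log2 changes against day 1 were -0.73 at day 4, -0.64 at day 7 and -0.73 at day 14.

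The members of this group parted in the day 14 female. P2ry12 lay at 463 TPM in the day 4 male, 2449 TPM in the day 14 male and between 4967 and 8137 TPM elsewhere, with 7306 TPM in the day 14 female. Tmem119, a widely used microglial marker gene, lay at 763 TPM in the day 14 female and 563 TPM in the day 4 male, and between 1661 and 5837 TPM elsewhere. Csf1r, the survival receptor gene, lay at 754 TPM in the day 14 female, 632 TPM in the day 7 male, 386 TPM in the day 4 male and between 2472 and 8375 TPM elsewhere. The longest transcript of P2ry12 is 38.6% GC, a value that only 2.8% of genes fall under, while Tmem119 is at 59.1% and Csf1r at 54.5%. GC-rich genes differed from one another in the day 14 female. Cst3, at 57.2% GC, was highest in that library, at 91885 TPM. Apoe, at 59.5% GC, lay there at 6744 TPM, against a median of 6505 TPM. C1qa, also at 59.5% GC, was low there, at 1653 TPM against a median of 6756 TPM. So was C1qc, at 57.5% GC, with 1559 TPM against a median of 6176 TPM. The part of base composition in these differences was not tested. Selplg, the P-selectin ligand gene, at 49.8% GC, lay at 3281 TPM in the day 14 female and had a median of 4818 TPM.

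Secreted microglial genes had the highest median sum of the gene lists, while by mean the mitochondrial genome was higher, at 104205 TPM against 101957 TPM. The secreted sum had a median of 109532 TPM, from 31985 TPM in the day 4 male to 156400 TPM in the day 14 female. All 20 members reached 1 TPM in all 8 libraries. Cst3 made up 37.2% of the mean sum. Without Cst3 the day 14 female had 64514 TPM, below the median of 73919 TPM, and the day 7 male was highest, at 85094 TPM. Microglial transcription factors summed to far less, with a median of 2372 TPM, and 22 of 23 reached 1 TPM in all 8. Irf8, a factor that directs microglial development, ranged from 72.4 TPM in the day 4 male to 555 TPM in the day 1 male. Spi1, the gene of PU.1, ranged from 21.2 TPM in the day 14 female to 463 TPM in the day 1 male. Bhlhe41, a repressor gene of the circadian and macrophage programmes, had the opposite extreme, with 646 TPM in the day 14 female against 9.33 to 180 TPM in the others. Spi1 transcripts are 58.9% GC and those of Bhlhe41 47.5%. Neither group had a member called for day in edgeR, 0 of 20 and 0 of 23.

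The lysosome list of 32 cathepsins and hydrolases summed to a median of 65204 TPM and all 32 members reached 1 TPM in all 8. Its lowest sum was 9263 TPM in the day 4 male and its highest 79701 TPM in the day 4 female. On the CPM scale the day 14 female was highest, at 99669, against 94828 in the day 4 female. Ctsd was uneven, with 894 TPM in the day 4 male, 1072 TPM in the day 14 female and 15047 TPM in the day 4 female. Complement genes summed to a median of 23126 TPM, led by the C1q chains. Iron and ferritin genes ran from 9245 TPM in the day 14 male to 27734 TPM in the day 7 male.

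Early response genes had a wide range. Their 23 members summed to 14075 and 15347 TPM in the day 1 female and male, 15022 TPM in the day 4 female and 20863 TPM in the day 7 female. The day 14 female had 5833 TPM, the day 14 male 3384 TPM, the day 7 male 3064 TPM and the day 4 male 1260 TPM. On each of the 3 scales the day 4 male was lowest and the day 7 female highest. Fos, a partner in the AP-1 dimer, had 93.2 TPM in the day 4 male, a median of 1214 TPM and 2173 TPM in the day 7 female. Egr1, another early response factor gene, had 135 TPM in the day 7 male, a median of 665 TPM and 2396 TPM in the day 7 female. Dusp1, a MAP kinase phosphatase gene, was highest in the day 1 female, at 3720 TPM, and lowest in the day 4 male, at 135 TPM. In edgeR 0 of 23 members were called for day, and their medians against day 1 were -1.20 at day 4, -1.05 at day 7 and -1.56 at day 14, against 0.01, 0.04 and -0.25 over all genes.

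Chemokine and cytokine genes were present at rest and uneven. The 28 genes summed to 801 TPM in the day 4 male, a median of 5991 TPM and 12003 TPM in the day 7 female. Ccl4 and Ccl3, which encode chemokines that attract leukocytes, led the list, at 4526 and 2742 TPM in the day 7 female, the highest for both. Ccl2, a chemokine gene for monocytes, was highest in the day 14 female at 1435 TPM. The 26 interferon response genes summed to between 1514 TPM in the day 4 male and 6735 TPM in the day 1 female. Ly6e, a membrane protein gene, led them at a mean of 3342 TPM and made up 71.2% of the mean sum. Without Ly6e the sum was highest in the day 7 male, at 3168 TPM, and lowest in the day 4 female, at 860 TPM.

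Genes of antigen presentation differed between the 2 classes. MHC class I summed to between 3016 TPM in the day 4 male and 14532 TPM in the day 7 female. MHC class II, which displays peptides to helper T cells, was lower and wider, with 133 TPM in the day 4 male, a median of 1568 TPM and 4125 TPM in the day 7 male. Cd74, the invariant chain gene, lay at 1897 TPM in the day 7 male and 1005 TPM in the day 1 female, and at 159 TPM in the day 1 male. H2-Ab1, a class II chain gene, was at 1172 TPM in the day 7 male and between 9.12 and 354 TPM in the other 7.

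**Figure D4:**
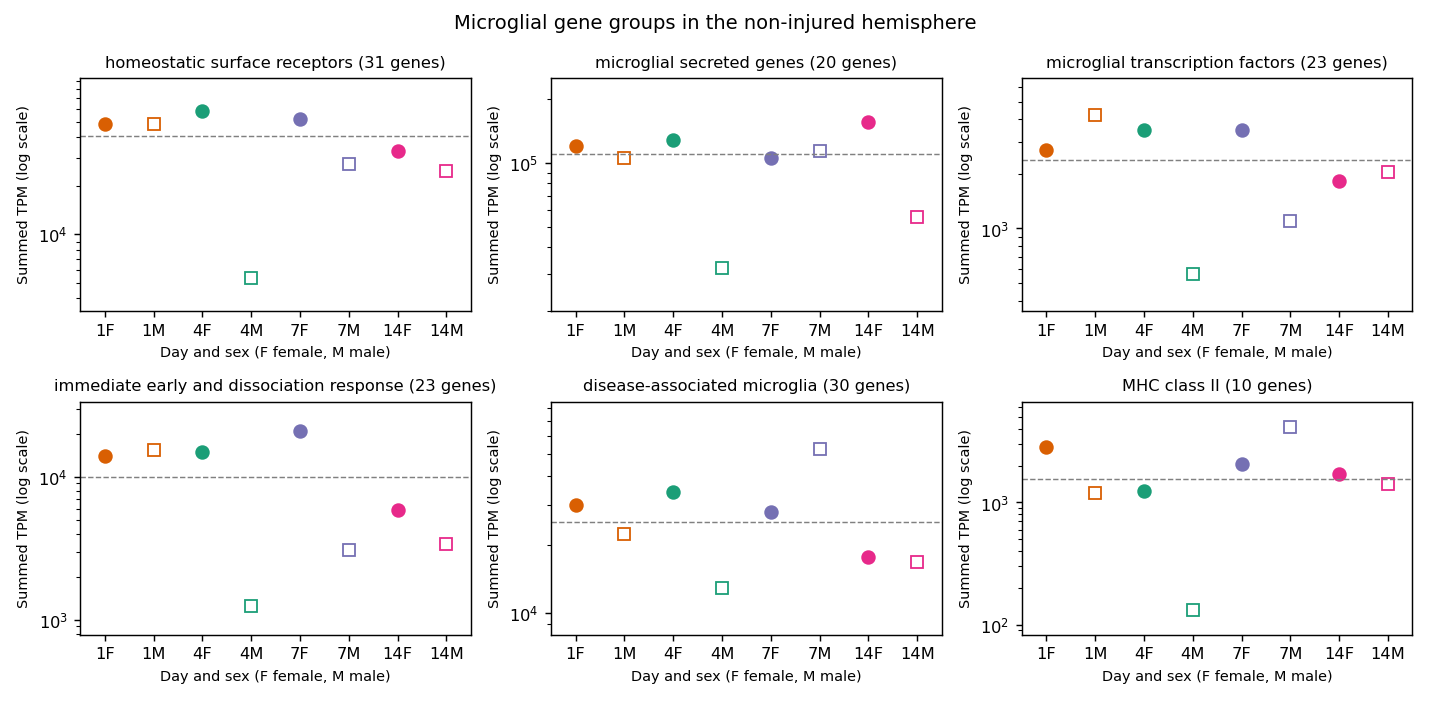
Summed TPM (log axis) of 6 microglial gene groups in each library, by day and sex, with females filled, males open and the dashed line at the median of 8. In TPM the day 4 male is the lowest in all 6 panels. The day 7 male is the highest for disease-associated genes (52943 TPM) and MHC class II (4125 TPM). On CPM the day 14 male was lowest for secreted genes (36807 against 38482 in the day 4 male) and disease-associated genes (15257 against 16950). On rescaled TPM the day 14 female was lowest for disease-associated genes, at 20712 against 28405 in the day 4 male. Apoe made up 28.8% of the mean TPM sum of that list. Without it the day 7 male had 29575 TPM and the day 4 female 27487 TPM. The day 14 female then had 10905 TPM and the day 4 male 3358 TPM, the lowest.

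The day 7 male library carried inflammatory genes that were low in the other 7. There, 19 genes at 50 CPM or more were at least 8-fold above all other non-injured libraries on the CPM scale. This compares with 37 in the day 4 male, 78 in the day 14 female, 1 each in the day 1 and day 14 males and 0 in the 3 other females. Saa3, an acute phase serum amyloid gene, lay at 12441 TPM in the day 7 male, against at most 21.7 TPM in the others. Lyz2, the macrophage lysozyme gene, lay at 7517 TPM against at most 947 TPM. Ccl5, a chemokine gene for T cells, lay at 1364 TPM against at most 55.9 TPM. Arg1, the arginase gene, lay at 188 TPM against at most 3.23 TPM, and Cfb, the complement factor B gene, at 116 TPM against at most 4.33 TPM. These genes were named after their values were seen.

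The injured library of the same day and sex held some of these genes at like levels and others at different ones. Saa3 lay at 11630 TPM there against 12441 TPM on the non-injured side, Il18bp, the interleukin 18 binding protein gene, at 183 against 228 TPM, and Aoah, a lipopolysaccharide deacylase gene, at 54.0 against 64.7 TPM. Ccl5 lay at 169 TPM on the injured side against 1364 TPM, so the injured side was lower. Lyz2 lay at 29837 TPM on the injured side against 7517 TPM, so it was higher. Arg1 was also higher on the injured side, at 579 against 188 TPM, and Cfb was lower, at 59.7 against 116 TPM. Monocyte markers, described next, were highest in the same non-injured library, and their part in these values was not tested.

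RNA of other cell types was present in every library. The 16 neuronal markers summed to 442 and 344 TPM in the day 1 female and male, 165 and 2947 TPM at day 4, 104 and 931 TPM at day 7, and 123 and 1485 TPM at day 14. Camk2a, a kinase gene of excitatory synapses, lay at 1383 TPM in the day 4 male, 704 TPM in the day 14 male and 5.27 to 173 TPM elsewhere. Snap25, a gene of the synaptic release machinery, lay at 349 TPM in the day 4 male, 317 TPM in the day 7 male and 157 TPM in the day 14 male, and at 16.9 to 46.9 TPM elsewhere. In the day 7 male Snap25 was high and Camk2a low, at 24.6 TPM, so the neuronal genes did not keep a constant ratio. Of the 16 markers, 11 reached 1 TPM in all 8 libraries. In such bulk samples, fewer cells of a type and less RNA per cell cannot be told apart.

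Markers of astrocytes and of oligodendrocyte precursors were also uneven. Astrocyte markers summed to between 260 TPM in the day 7 female and 3712 TPM in the day 7 male, with 2980 TPM in the day 4 male. In CPM the day 4 male was highest, at 9989 against 5914 in the day 7 male. On rescaled TPM the day 4 male was also highest, at 6576 against 4632 in the day 7 male. The 4 males, at 760 to 3712 TPM, lay above the 4 females, at 260 to 656 TPM, on the TPM scale, but on the CPM scale the day 1 male, at 1018, was below the day 1 female, at 1049. Aldoc, the aldolase gene of astrocytes, led with 2303 TPM in the day 7 male and 1152 TPM in the day 4 male, and Gfap, the astrocyte filament gene, had 464 CPM in the day 7 male and 314 CPM in the day 4 male against 1.30 to 98.0 CPM elsewhere. Oligodendrocyte precursor markers summed to 47.3 to 257 TPM in males and 11.4 to 36.0 TPM in females, with no overlap on any of the 3 scales. The share of all lists that part the sexes in this way was not counted, so the separation is only a description. In edgeR 0 of 14 astrocyte and 0 of 10 precursor markers were called between the sexes, with medians of -3.29 and -1.86 (female over male) against -0.17 over all genes.

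Oligodendrocyte markers summed to 1235 TPM in the day 14 female, a median of 2796 TPM and 5766 TPM in the day 1 female. Trf, the transferrin gene, made up 49.3% of the mean sum, and the 11 others summed to between 186 TPM in the day 14 female and 3353 TPM in the day 1 female. Mbp, the myelin basic protein gene, lay at 2189 TPM in the day 1 female, 1581 TPM in the day 4 male and 1467 TPM in the day 14 male, and at 32.2 TPM in the day 14 female. The day 14 female, lowest for Mbp, is the library with the composition trend given above, whose part in this value was not tested.

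Vascular markers had an order of their own. Cldn5, a tight junction gene of brain endothelium, lay at 454 TPM in the day 7 male and 448 TPM in the day 1 female, and between 61.5 and 181 TPM in the other 6. The 13 endothelial markers summed to 3587 TPM in the day 7 male, 2803 TPM in the day 1 female and 799 TPM in the day 4 male, the lowest on this scale. On the CPM scale and on rescaled TPM the day 7 female was lowest, at 661 CPM and 1074 rescaled TPM, against 1279 CPM and 1764 rescaled TPM in the day 4 male. Bsg, an immunoglobulin-like membrane protein gene, made up 65.3% of the mean sum. Mural markers of the vessel wall summed to 236 TPM in the day 1 female and 9.84 TPM in the day 1 male.

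**Figure D5:**
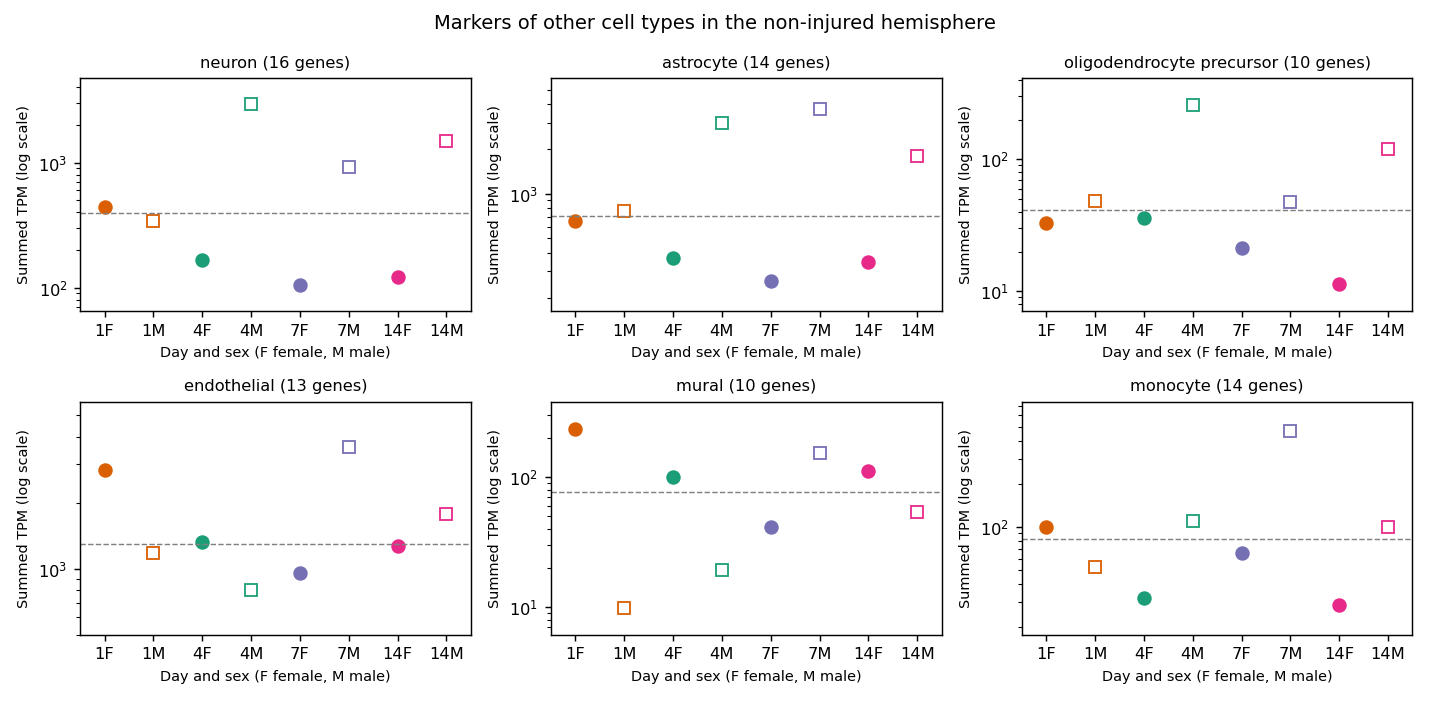
Summed TPM (log axis) of markers of 6 other cell types in each non-injured library, by day and sex, with females filled, males open and the dashed line at the median of 8. Neuronal markers reach 2947 TPM in the day 4 male, and monocyte markers 464 TPM in the day 7 male.

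Markers of blood and border cells were measured as well. The 14 monocyte markers summed to 464 TPM in the day 7 male and between 28.3 and 110 TPM in the other 7. Lgals3, the galectin-3 gene, supplied 248 TPM in the day 7 male, and Ccr2 and Ly6c2, which define recruited monocytes, reached 1 TPM in 5 and 2 of 8 libraries. Markers of border-associated macrophages summed to between 64.8 TPM in the day 4 male and 1399 TPM in the day 7 male, where Ms4a7, a membrane gene of such macrophages, lay at 621 TPM. In CPM the day 4 female was highest for this list, at 1407, and the day 7 male had 906. Globin and other red cell genes summed to 305 and 154 TPM in the day 1 female and male and to between 8.54 and 58.4 TPM later, and Hba-a2, an alpha globin gene, lay at 148 and 71.3 TPM in the day 1 female and male and at most 19.3 TPM later. On the CPM scale this order did not hold, since the day 1 male, at 35.9, lay below the day 4 male at 65.6, the day 7 male at 41.5 and the day 14 female at 52.7. In edgeR 0 of the 6 tested red cell genes were called for day. T cell markers stayed between 18.3 and 67.1 TPM, NK cell markers between 0.04 and 14.7 TPM and mast cell markers between 0.27 and 7.98 TPM.

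Several marker lists rested on 1 gene. Siglech, a lectin gene, made up 98.7% of the dendritic cell sum, Csf3r, the G-CSF receptor gene, 91.0% of the neutrophil sum, Gp9, a platelet glycoprotein gene, 86.3% of the platelet sum and Ighm, the IgM heavy chain gene, 81.5% of the B cell sum. Of their other members, Elane, a neutrophil protease gene, was listed at 0 in 6 libraries, and Clec9a, a lectin gene of dendritic cells, in 4. Further members were present, since in the day 7 female 9 of 13 neutrophil markers and 6 of 8 dendritic cell markers reached 1 TPM. In the day 14 female 1 and 2 did so. Without Csf3r the neutrophil sum ran from 0.03 TPM in the day 14 female to 48.9 TPM in the day 7 male.

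Between females and males edgeR called 11 of 24622 genes (0.0447%), 4 higher in females (0.0162%) and 7 lower (0.0284%), and DESeq2 called 1158. At an unadjusted p under 0.05 there were 1463 genes in edgeR, and the small number of calls does not show that the sexes were otherwise alike. The edgeR count depended on single libraries, at 721 without the day 1 female, 648 without the day 1 male, 195 without the day 14 female, 43 without the day 14 male, and 17 and 18 without the day 7 female and male. Gm12671 and Gm28438, both among the 11, are predicted gene models named after their values were seen, and 6 are sex-linked by position and known function. Gm28438 is among the pseudogene copies on chromosome 1 described above, and shares 99.0% of its 31-base words with mitochondrial transcripts. Its reads cannot be told from mitochondrial ones, and their part in this call was not tested. Xist, the RNA that silences an X chromosome, lay at 122 to 339 CPM in females and at most 0.32 CPM in males. Tsix, its antisense gene, lay at 13 CPM or more in females, up to 86.4 CPM, and at most 1.00 CPM in males, and without strand information its reads cannot be told from those of Xist. Ddx3y and Eif2s3y, on the Y chromosome, were at 0 in all 4 females and at 35.9 to 163 CPM in males. Kdm5d and Uty, also on the Y chromosome, reached at most 0.17 CPM in females and 9.24 to 54.4 CPM in males.

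The other 3 called genes are Acta2, Tmem47 and Tmem229a. Acta2, the smooth muscle actin gene and a marker in the mural list, lay at 55.9, 21.7, 5.73 and 35.0 CPM in the females of days 1, 4, 7 and 14, against 0.71, 0.43, 0.59 and 0.21 CPM in the males. It was higher in females in 4 of 4 days, by 5.69 on the log2 scale (SE 1.03, edgeR adjusted p = 0.00855). Mural sums did not follow this on every day, since the day 7 male, at 155 TPM, was above the day 7 female, at 41.5 TPM. Tmem47, a junction protein gene on the X chromosome, lay at 1.90, 7.30, 4.16 and 0 CPM in females, against 14.8, 354, 56.7 and 26.3 CPM in males, and fell by 5.01 (SE 0.93, edgeR adjusted p = 0.00957). Tmem229a, a membrane protein gene on chromosome 6, lay at 0 to 3.27 CPM in females, against 15.0, 209, 26.5 and 29.3 CPM in the males of days 1, 4, 7 and 14, and fell by 5.25 (SE 1.05, edgeR adjusted p = 0.0304). Astrocyte sums were higher in the male on 4 of 4 days in TPM and on 3 of 4 in CPM, and neuronal sums on 3 of 4 on both scales, and their part in these calls was not tested. The edgeR adjusted p of Acta2 was 0.109 without the day 4 female. That of Tmem47 was 0.297 without the day 4 male, and that of Tmem229a was 1 without the day 4 male and 0.111 without the day 4 female.

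The spread over the 8 libraries differed widely between genes. Among 1653 genes averaging 100 CPM or more, the median SD of log2(CPM + 1) was 0.88. The spread was under 2-fold for 24 of them and over 16-fold for 349. The steadiest was Csnk1a1, a casein kinase gene, with an SD of 0.19 and 139 to 218 CPM, followed by Tcf4, a transcription factor gene, at 0.21, and Ubl3, a ubiquitin-like gene, at 0.24. G3bp2, a stress granule protein gene, Psma1, a proteasome subunit gene, and Atp6v0d1, a proton pump subunit gene, were also in the 12 steadiest, with SDs of 0.26, 0.26 and 0.28.

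At the other end stood Xist, with an SD of 4.10, Saa3 with 3.96, and Rn7s1 and Rn7s2 with 3.68 and 3.63. Genes active in neurons were among those that followed. Arc, a gene of active synapses, lay at 1193 CPM in the day 4 male and 588 CPM in the day 14 male and at most 45.4 CPM elsewhere. Camk2a, Meg3, Jph3 and Nsmf followed with SDs between 2.68 and 2.83. Cpe, a peptide hormone processing gene, lay at 8519 CPM in the day 4 male, 2087 CPM in the day 7 male and 33.2 to 562 CPM elsewhere.

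Day 4 males and day 14 females differed from the rest in different genes. The 8-fold limit was set on TMM-scaled CPM, and on TPM the 9 genes named here stood less far apart. Among the 37 genes past it in the day 4 male were mt-Nd4, mt-Co2 and mt-Co3. Nefl, a neurofilament gene, lay at 890 CPM in that library against at most 110 CPM, and at 202 TPM against at most 55.8 TPM. Ddn, a dendrite gene, lay at 705 CPM against at most 52.5 CPM, and at 156 TPM against at most 24.2 TPM. Mlc1, an astrocyte membrane gene, lay at 522 CPM against at most 64.6 CPM, and at 138 TPM against at most 32.1 TPM. These 3 genes were thus highest in the day 4 male on both scales. In the day 14 female, which had the lowest TMM factor at 0.646, 78 genes passed the limit. Qk, an RNA-binding protein gene, lay there at 17967 CPM against at most 1195 CPM, and at 2721 TPM against at most 479 TPM. Canx, a chaperone gene of the endoplasmic reticulum, lay at 9842 CPM against at most 1026 CPM, and at 2074 TPM against at most 427 TPM. Actr2, an actin nucleator gene, lay at 5819 CPM against at most 323 CPM, and at 1258 TPM against at most 192 TPM. Transcripts of the 78 genes had a median GC content of 43.8%, against 49.5% over 9179 genes, and the 9 genes lower than in all others had 54.5%. In the injured library of day 14 females, Qk lay at 1349 TPM, Canx at 1277 TPM and Actr2 at 987 TPM. The ribosomal protein genes, 79 in all, summed to 31897 TPM in the day 4 male and 10456 TPM in the day 14 female, and the 32 nuclear genes of the respiratory chain to 24632 and 6883 TPM.

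Compared with the wound side, the non-injured libraries had more RNA of the neuronal list and less of the monocyte and disease-associated microglia lists. Sums of 42 lists were compared over 8 pairs of the same day and sex by an exact two-sided sign-flip test, whose smallest possible p is 0.00781, and 9 lists were called. Neuronal markers had a median of 34.8 TPM on the injured side and 393 TPM on the non-injured side, and were lower on the injured side in 8 of 8 pairs (mean log2 ratio -3.32 ± 1.15, SD, n = 8, exact adjusted p = 0.0365). Oligodendrocyte precursor markers (-1.48), cystatins (-1.57), the dendritic cell list (-2.51) and the platelet list (-1.52) were also lower on the injured side in 8 of 8 pairs at the same exact adjusted p. On summed CPM the precursor value was -0.75, with 3 of 8 pairs higher on the injured side (exact adjusted p = 0.120). Cst3 made up 97.2% of the mean cystatin sum in the non-injured libraries, Siglech 98.7% of the dendritic cell sum and Gp9 86.3% of the platelet sum, so these 3 values describe mainly 1 gene each. Siglech is also known as a gene of microglia themselves. Disease-associated microglia genes had medians of 168369 TPM on the injured side and 25072 TPM on the non-injured side (2.29 ± 1.19, 8 of 8 pairs higher, exact adjusted p = 0.0365). Monocyte markers (3.77), iron genes (1.83) and ribosomal proteins (0.76) were higher on the injured side in 8 of 8 pairs at that p. Leaving out the day 4 male pair gave 15 calls, and leaving out any of the 7 other pairs gave 0, in a design whose smallest possible p is then 0.0156.

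The homeostatic receptors did not pass this test. They had medians of 18895 TPM on the injured side and 40740 TPM on the non-injured side and were lower on the injured side in 7 of 8 pairs (-0.66 ± 1.08, exact adjusted p = 0.164). The exception was the day 4 male pair. Leaving out each other pair in turn gave exact adjusted p of 0.197 to 0.284. Without the day 4 male pair the mean was -1.02 (exact adjusted p = 0.0438), but that pair is the 1 pair in the other direction, so the like direction of the rest is fixed by its removal and gives no support. By correlation across genes, 6 of the 8 non-injured libraries had their own day and sex partner as the closest of the 8 injured libraries. For the day 7 male and the day 14 female the partner was closer than any of the other 14 libraries, non-injured ones included.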

How the data were processed

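RNA of sorted EYFP-positive microglia was made into SMART-Seq v4 and Nextera XT libraries, per the labels' protocols. The authors deposited estimated counts per gene, which need not be whole, and TPM values per gene, scaled for transcript length and library total. Salmon 1.0.0 is listed, along with DESeq2 1.26.0, in the submitters' processing notes, without their roles. For the genome build and the annotation, the sources used here name none. Of 55385 gene IDs, 54487 matched GENCODE M21 with their version. All 32 count columns were mapped by name.

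Estimated counts were summed over the 2 columns of a group and rounded, and TPM were averaged. Genes that passed edgeR's expression filter (minimum count 10) were fitted with day and sex as factors by the quasi-likelihood test of edgeR 4.0.16 in R 4.3.3, with TMM scaling and Benjamini-Hochberg adjustment at 0.05, and the scripts were tested on simulated data. Alternatives used DESeq2 1.42.0 and limma 3.58.1 on log2(TPM + 1). List sums of the sides were compared on log2(TPM + 1). Library totals ran from 21874442 to 45229115 counts. Their number limits precision. The authors' tables of injured against non-injured comparisons were not used.

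The members, gene lists and tests were chosen with earlier results of these data known. Named genes were the 30 most abundant, called genes, the 12 steadiest and 12 most variable, and the leading members and first markers of each list. Other named list members and genes apart in 1 library were chosen after their values were seen. Some items that fall under this rule are not reported here.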

Additional observations from a re-analysis of the deposited data

Results flagged for a closer look

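Of 50 values compared over the 8 non-injured libraries, 13 had 1 library whose gap to its nearest neighbour exceeded Dixon's critical share of the whole range. For normally distributed values chance flags about 1 in 20 such groups. The sums and shares were not put on a log scale, so that rate need not hold for them. Many of these values also share a library.

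Of these values, 6 had the day 4 male library apart. Its nuclear protein-coding share was 66.3% of counts, against 82.9% to 96.7% in the other 7, its mitochondrial share 25.7% against 1.16% to 7.55%, and its pseudogene share 6.00% against 0.42% to 1.27%. Its mitochondrial genes summed to 360474 TPM against 26034 to 136752 TPM, its nuclear respiratory chain genes to 24632 TPM against 4576 to 14029 TPM, and its oligodendrocyte precursor markers to 257 TPM against 11.4 to 120 TPM.

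The day 7 male library had the highest sums of monocyte markers, at 464 TPM against 28.3 to 110 TPM, of lipid transport genes, at 26075 TPM against 3124 to 10584 TPM, and of meningeal fibroblast markers, at 133 TPM against 18.6 to 61.0 TPM. The last 2 rested on 1 gene each. Without Apoe the lipid transport sum of the day 7 male was 2707 TPM, below the day 14 female at 3392 TPM, and without Apod its fibroblast sum was 12.7 TPM, below the day 14 female at 33.1 TPM. The day 14 female library was highest for actin and motility genes, at 112408 TPM against 7164 to 34312 TPM. Without Actb that sum was 10288 TPM, below the median of 13307 TPM. The same library was lowest in its trend with GC content, at -2.25 against -0.35 to 0.44. The day 14 male library had 5.18% of counts in small RNA and others, against 0.01% to 0.68%. The day 1 female library had the highest sum of oligodendrocyte markers, at 5766 TPM against 1235 to 3175 TPM.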

How the results depend on the processing

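Counts of called genes for day, and for days 4, 7 and 14 over day 1, were 19, 4, 0 and 2 with no filter on low counts, 8, 20, 5 and 67 in DESeq2, and 27, 1, 3 and 5 without both the day 4 male and the day 14 female. For female over male they were 144 with no filter, 1158 in DESeq2, 2 in limma and 4 over protein-coding genes alone. With the 16 columns taken as samples the counts were 2227, 291, 61, 1684 and, for sex, 3655, and with the replicate block 1154, 79, 2, 1087 and 2857. These fits treat columns that differ by counting noise as samples, and a column number is not known to pair animals. Leaving out 1 library or 1 column in turn gave 0 to 820 calls for day, 0 to 25 at day 4, 0 to 6 at day 7, 0 to 1293 at day 14 and 6 to 721 for sex. The side comparison gave 21 lists on CPM and 0 to 15 with 1 pair left out, and all 9 lists kept their direction, with 8 of the 9 called on CPM. Leaving out 1 library kept 25 to 29 of the 30 leading genes. It gave mean shares of 88.3% to 92.7% for protein-coding genes, 3.62% to 7.13% for the mitochondrial genome, 0.85% to 1.64% for pseudogenes, 1.3% to 1.49% for long non-coding RNA and 0.25% to 0.99% for small RNA and others. Of the values for single genes and lists under the alternatives, 186 kept their side of the threshold, 91 lost it and 0 reversed. The causes were not tested. With 1 library per day and sex, depth does not replace replicates.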
